A study of Mus musculus with 6 samples.

Results

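The circular RNAs novel_circ_048207 and novel_circ_048208 carry consecutive numbers in a table of 57233 circRNAs from mouse ovary. These 2 members were chosen by their IDs after both had been seen to be higher in hypobaric hypoxia than in normal pressure. Their levels in the 2 groups, and their values in a fit across all circRNAs, are therefore given as a description, and no p between the groups is given for them. The table holds IDs and relative abundances, so host genes, coordinates and sequences of the couple are not used here.

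Ovaries came from female C57BL/6J mice (C57BL/6 in the design text), aged 8 weeks by the design text and 6 to 8 weeks by the sample descriptions. The normal pressure group was kept for 15 days in Lanzhou, China, at 83.56 kPa with oxygen at 17.8 kPa. Its altitude is 1500 m in the titles and 1588 m in the design text. The hypobaric hypoxia group was kept for 15 days in a chamber at 43.12 kPa with oxygen at 8.1 kPa. That chamber setting stands for 6500 m in the titles and for 5000 m in the descriptions. Both groups had received levonorgestrel and ethinylestradiol by gavage, which synchronize the cycle, with doses of 0.1 and 0.02 mg/kg stated for the hypoxia group. Each group had 15 mice and gave 3 libraries, and the labels do not say how many mice a library holds, so differences between libraries of a group may be technical. All libraries carry the same batch number.

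A circRNA forms when a downstream splice donor is joined to an upstream splice acceptor, which closes the RNA into a ring without free ends. RNase R, which digests linear RNA from its 3′ end, therefore spares circRNAs, and the libraries were made from RNA treated with it. A single gene can give several circRNAs that differ in the exons they hold. Whether novel_circ_048207 and novel_circ_048208 come from a single gene was not tested, because the IDs are paired with no gene name. For the same reason the tissue could not be checked by marker genes. In whole ovary, more cells of a type and more circRNA per cell cannot be told apart.

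Abundance is in RPM, reads scaled by the authors to a fixed total over the listed circRNAs of each library. The reads behind the RPM numbered 151364 to 369055 at normal pressure and 487143 to 526621 under hypoxia. Each hypoxia library was thus deeper than each normal pressure library, and normal pressure replicate 2 was the shallowest. Intervals on single libraries are exact Poisson or binomial 95% intervals on these reads. They cover counting error only, because the reads carry no molecular identifiers and several can stem from 1 molecule.

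The more abundant member, novel_circ_048207, had 915, 1050 and 894 RPM in normal pressure replicates 1, 2 and 3. In the hypoxia replicates 1, 2 and 3 it had 1457, 1768 and 1275 RPM. Every hypoxia library was above every normal pressure library, and the lowest hypoxia value was 1.21 times the highest normal pressure value. The mean was 953 ± 84.9 RPM at normal pressure and 1500 ± 249 RPM under hypoxia (SD, n = 3), a ratio of 1.57.

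The less abundant member, novel_circ_048208, had 134, 99.1 and 154 RPM in normal pressure replicates 1, 2 and 3. In the hypoxia replicates 1, 2 and 3 it had 260, 258 and 220 RPM. The groups again did not overlap, with the lowest hypoxia value at 1.42 times the highest normal pressure value. The means were 129 ± 28.0 RPM and 246 ± 22.7 RPM (SD, n = 3), a ratio of 1.90. Of 15737 circRNAs above 0 in at least 3 libraries, 9.12% had every hypoxia library above every normal pressure library. Of the 6057 above 0 in all 6 libraries, as both members are, it was 6.03%. The choice of the members had used this contrast, so their count of 2 of 2 is not a result.

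**Figure D1:**
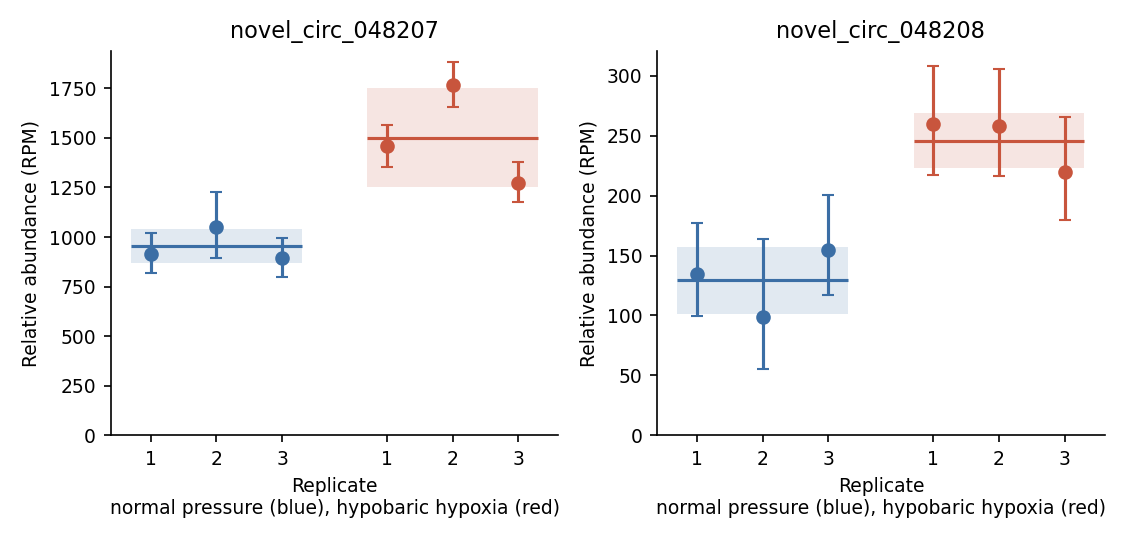
Relative abundance in RPM of novel_circ_048207 (left) and novel_circ_048208 (right) in each library, with points and bars giving the value and its 95% Poisson interval, and lines and bands the group mean and SD (n = 3). All hypoxia points lie above all normal pressure points in both panels, from 1275 RPM upward against 1050 RPM at most on the left, and from 220 against 154 RPM at most on the right.

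The reads behind these values set how well each is known. In the normal pressure libraries novel_circ_048207 rested on 334, 159 and 330 reads, and in the hypoxia libraries on 730, 931 and 621 reads. For novel_circ_048208 the numbers were 49, 15 and 57 reads at normal pressure and 130, 136 and 107 reads under hypoxia. Its value in normal pressure replicate 2, the lowest of the 6, rested on 15 reads, with an interval of 55.5 to 163 RPM that includes the values of both other normal pressure libraries. The interval of its highest normal pressure value, 117 to 200 RPM, overlapped that of its lowest hypoxia value, 180 to 265 RPM. The matching intervals of novel_circ_048207, 894 to 1227 RPM in normal pressure replicate 2 and 1176 to 1379 RPM in hypobaric hypoxia replicate 3, overlapped as well.

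Ranks within a library do not depend on the scaling between libraries. Among all circRNAs of its library, counted from the most abundant, novel_circ_048207 ranked 131, 116 and 131 in normal pressure replicates 1, 2 and 3. In the hypoxia replicates 1, 2 and 3 it ranked 69, 50 and 87. The ranks of novel_circ_048208 were 1238, 1754 and 1051 in normal pressure and 613, 616 and 715 under hypoxia. Both members thus stood nearer the top in every hypoxia library than in any normal pressure library. The ranks come from the same values on which the members were chosen, so this too is a description. The share of all circRNAs with ranks free of overlap is not given here.

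The spread between replicates differed between the members. In hypobaric hypoxia novel_circ_048207 had a coefficient of variation of 16.6%, where counting alone gives 3.63%. This spread was larger than that of 92.2% of the 64 circRNAs with at least as many reads in that group, whose median was 6.41%. In normal pressure its coefficient of variation was 8.90%, where counting alone gives 6.60%. For novel_circ_048208 the coefficient of variation was 21.7% at normal pressure and 9.22% under hypoxia, and counting alone gives 17.0% and 8.97%. Most of the replicate spread of novel_circ_048208 was thus of the size of counting error, while novel_circ_048207 varied between hypoxia libraries by more than that. The high library was replicate 2 and the low one replicate 3.

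In the fit across all circRNAs (limma on log2(RPM + 4.765)), novel_circ_048207 was higher in hypobaric hypoxia by 0.64 on the log2 scale, with 0.11 as the standard error. For novel_circ_048208 the log2 fold change was 0.92 and the standard error 0.24. The standard errors borrow from circRNAs of like abundance. From the 6 values of each circRNA alone they were 0.15 for novel_circ_048207 and 0.20 for novel_circ_048208. Over all 15737 circRNAs tested the median log2 fold change was 0.18, and over the 6057 above 0 in all 6 libraries it was -0.07. Among those 6057, novel_circ_048207 had the rank 332 and novel_circ_048208 the rank 89 by size of the rise. Among all 15737 tested their ranks were 4026 and 2518.

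The fit called 26 circRNAs higher at a Benjamini-Hochberg adjusted p under 0.05, which is 0.165% of those tested, and 0.407% were called in either direction. Each library was also centred on its median over the circRNAs above 0 in all 6 libraries. The calls were then 37 higher and 22 lower, against 26 and 38. Both members were among the 26, and since they were chosen on this contrast nothing is read from it. The call of novel_circ_048208 was lost in 12 of 15 alternative fits, among them each of the 6 fits with 1 library left out and the fit with the replicate number as a block. The call of novel_circ_048207 was lost in 4 of 15, namely without normal pressure replicate 1, without normal pressure replicate 3, without hypobaric hypoxia replicate 2, and without intensity trend and robust variances. The size of the difference varied less, with log2 fold changes of 0.52 to 0.75 for novel_circ_048207 and 0.75 to 1.06 for novel_circ_048208 over the alternatives that can change it.

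**Figure D2:**
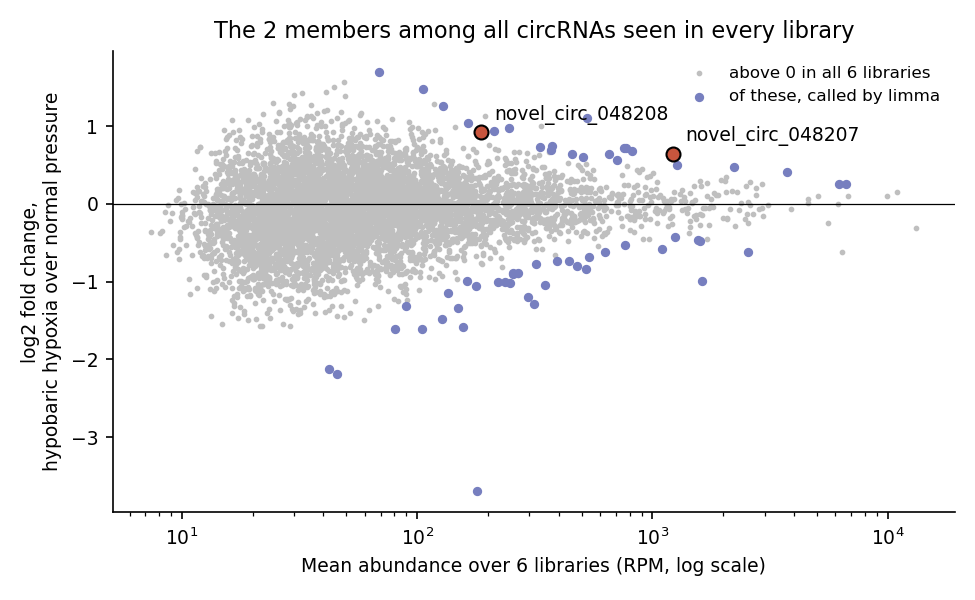
Log2 fold change (hypobaric hypoxia over normal pressure) against mean RPM on a log axis for the 6057 circRNAs above 0 in all 6 libraries, with those called by limma in violet and the 2 members in red. At their abundance the members lie at the upper edge of the cloud, at 0.64 and 0.92.

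Reads were also drawn at random to bring every library to 151364 reads, since the hypoxia libraries were deeper. At this depth the log2 fold change was 0.66 for novel_circ_048207 and 0.96 for novel_circ_048208 (means of 20 draws). The groups of novel_circ_048207 did not overlap in 20 of 20 draws, and those of novel_circ_048208 in 18 of 20. The members were chosen on this contrast, so these counts are not a result. The share of single circRNAs free of overlap at this depth is not given here. Of couples of consecutive IDs, 0.54% had both circRNAs free of overlap with hypoxia higher at this depth. Since RPM is scaled to a fixed total, drawing reads at random leaves the expected RPM of a circRNA nearly as it was, and the draws show mainly how much counting error the smaller depth adds.

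**Figure D3:**
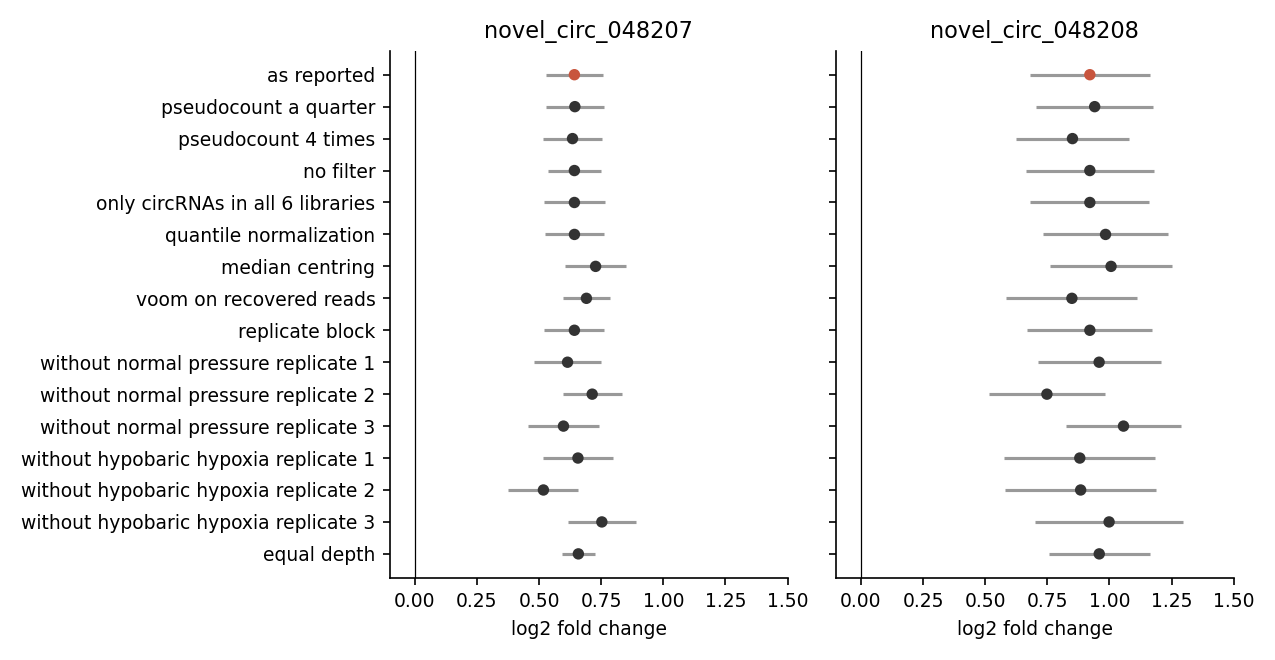
Log2 fold change of each member (hypobaric hypoxia over normal pressure) as reported, in red, and under the alternatives, with bars giving the standard error of the fit or, for equal depth, the SD over 20 draws. The fit without intensity trend and robust variances is not drawn. It had the reported log2 fold changes, with larger standard errors of 0.35 for novel_circ_048207 and 0.36 for novel_circ_048208. Every point lies above 0, between 0.52 and 0.75 on the left and between 0.75 and 1.06 on the right.

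Together the couple had 1049, 1150 and 1049 RPM in normal pressure replicates 1, 2 and 3. In the hypoxia replicates 1, 2 and 3 the sum was 1717, 2026 and 1494 RPM. The sum was higher in every hypoxia library than in any normal pressure library, and its means were 1082 ± 58.1 and 1746 ± 267 RPM (SD, n = 3), a ratio of 1.61. As a share of all circRNA reads this was 0.108% ± 0.00581 and 0.175% ± 0.0267 (SD, n = 3). Of the added 663 RPM, novel_circ_048207 gave 547 RPM and novel_circ_048208 117 RPM. The couple held 4.45% of the normal pressure RPM and 5.24% of the hypoxia RPM of the 26 circRNAs called higher, a set in which it was itself included.

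Within a library novel_circ_048207 was always the more abundant member, at 5.62 to 10.6 times the RPM of novel_circ_048208. The mean log2 ratio of novel_circ_048208 to novel_circ_048207 was -2.72 ± 0.33 (SD, n = 6), and it was below 0 in 6 of 6 libraries (exact sign-flip permutation test, two-sided, p = 0.03125, the smallest that 6 libraries allow). With all 6 log2 ratios below 0 the test can give no other p, so the p adds nothing to the ratios themselves. This comparison is made within libraries and did not enter the choice of the members. It is of reads and not of molecules per length, because the lengths of the 2 circRNAs are not used here.

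Of the reads of the couple, novel_circ_048208 held 12.8%, 8.62% and 14.7% in normal pressure replicates 1, 2 and 3. The exact binomial intervals were 9.62 to 16.6%, 4.91 to 13.8% and 11.4 to 18.7%. In the hypoxia replicates 1, 2 and 3 it held 15.1%, 12.7% and 14.7%, with intervals of 12.8 to 17.7%, 10.8 to 14.9% and 12.2 to 17.5%. The groups overlapped, and the low share in normal pressure replicate 2 stood farthest from the others.

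The mean share was 12.0% ± 3.12 at normal pressure and 14.2% ± 1.27 under hypoxia (SD, n = 3), a difference of 2.14 percentage points, which is smaller than the SD in normal pressure. Without normal pressure replicate 2 the difference was 0.426 percentage points, and without normal pressure replicate 3 it was 3.48 percentage points. At equal depth single draws gave differences from -1.19 to 5.89 percentage points. On the log2 scale the ratio of novel_circ_048208 to novel_circ_048207 was -2.86 ± 0.44 at normal pressure and -2.58 ± 0.15 under hypoxia (SD, n = 3). The difference in share between the groups was thus within the spread between libraries.

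**Figure D4:**
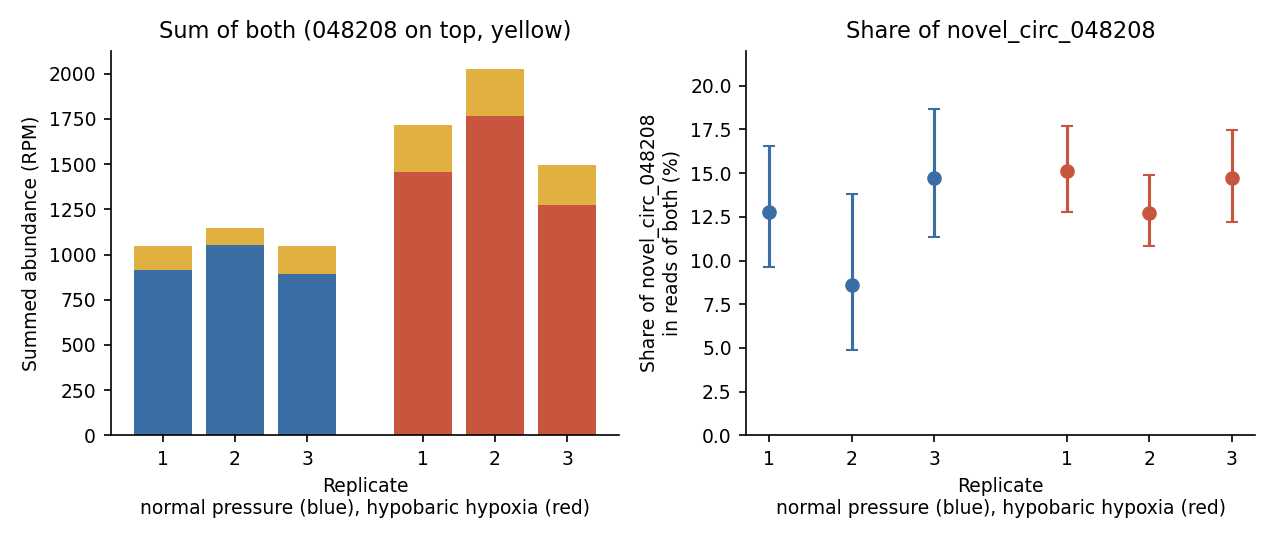
Summed RPM of both circRNAs per library (left, stacked bars from 0, novel_circ_048208 in yellow) and the share of novel_circ_048208 in the reads of both (right, points with exact binomial 95% intervals). The sums run from 1049 to 1150 RPM at normal pressure and from 1494 to 2026 RPM under hypoxia, while the shares overlap, at 8.62 to 14.7% and 12.7 to 15.1%.

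The IDs on either side were looked at as context only, since the order in which IDs were given is not stated in the sources used here. The nearest lower IDs were scarce, with novel_circ_048206 above 0 in 2 libraries, at 8.22 and 13.29 RPM, and novel_circ_048205 in 1 library, at 9.98 RPM. The nearest higher IDs were scarce as well, novel_circ_048209 being above 0 in 1 library, at 11.39 RPM, and novel_circ_048210 listed at 0 in all 6. The couple thus stood between IDs with next to no reads. Of the summed RPM of the 22 IDs from novel_circ_048197 to novel_circ_048218, the couple held 54.2% ± 1.78 at normal pressure and 57.8% ± 2.38 under hypoxia (SD, n = 3).

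Among the 10 lower IDs, 6 were tested, and their log2 fold changes ran from -0.89 to 0.48 with a median of 0.19. None of these 6 had groups free of overlap with hypoxia higher, and limma called 0 of them, with 0 at an unadjusted p under 0.05. On the other side 3 of the 4 tested had an unadjusted p under 0.05, as had 1354 of all 15737 circRNAs tested. Of the 10 higher IDs the 4 tested had log2 fold changes from 0.67 to 2.06. Of these 4, 3 had groups free of overlap with hypoxia higher, where 9.12% of all circRNAs tested had. Of these 4, novel_circ_048213 and novel_circ_048215 were above 0 in all 6 libraries. The other two were above 0 in all 3 hypoxia libraries and in 1 normal pressure library, so they passed the minimum of 3 libraries through the hypoxia group. These were novel_circ_048217 and novel_circ_048218, which had the largest changes of the 4 and group means of at most 23.7 RPM. Of them novel_circ_048218 is 1 of the 3 with an unadjusted p under 0.05 and 1 of the 3 free of overlap. Both counts thus rest in part on the filter, and nothing is read from them.

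A flanking circRNA, novel_circ_048215, was called higher in the fit. It had 222, 205 and 331 RPM in the normal pressure libraries, and 445, 378 and 419 RPM in the hypoxia libraries, in the order of replicates. It was higher by 0.73 on the log2 scale, with 0.19 as the standard error (limma adjusted p = 0.0359, higher in 3 of 3 hypoxia libraries than in any normal pressure library). That call was lost in 12 of 15 alternative fits, each of the 6 with 1 library left out among them, where its limma adjusted p was 0.200 to 0.531, and it was 0.0516 with a replicate block. The circRNA novel_circ_048213, singled out after its values were seen, had 203 ± 61.6 and 315 ± 17.4 RPM (SD, n = 3). Its groups did not overlap either, with a log2 fold change of 0.67, and it was not called (limma adjusted p = 0.210).

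**Figure D5:**
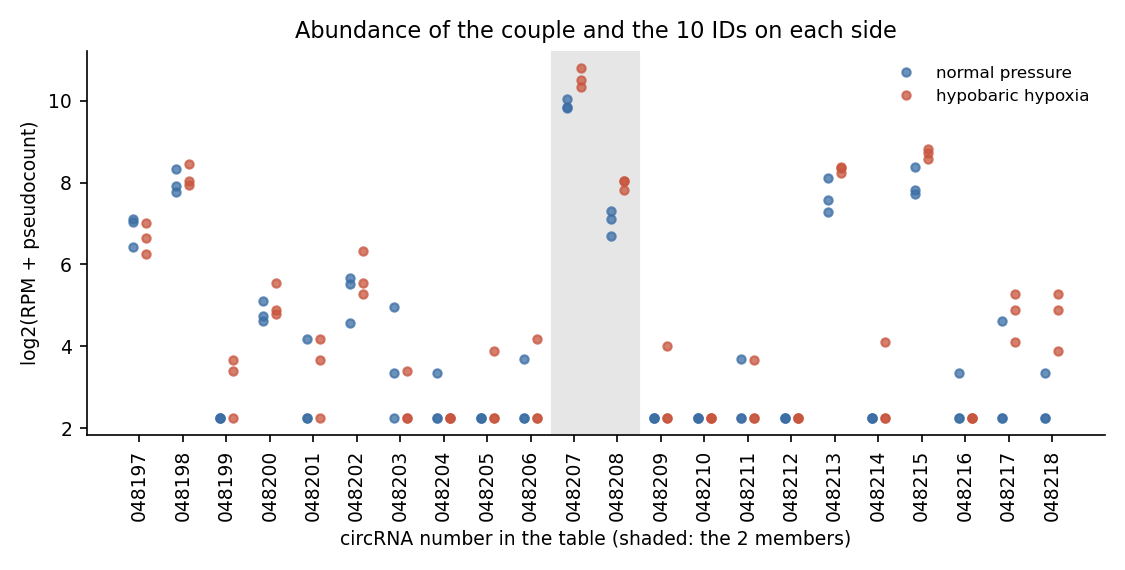
Abundance as log2(RPM + pseudocount) of the couple (shaded) and of the 10 IDs on each side, 1 point per library, with normal pressure in blue and hypobaric hypoxia in red; points at the lowest level are listed at 0. The couple, novel_circ_048213 and novel_circ_048215 have all red points above all blue points, while novel_circ_048197 and novel_circ_048198 have mixed ones. The scarce novel_circ_048218 has its red points above its blue ones as well, at 9.98 RPM or more against 5.48 RPM or less.

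Couples of consecutive IDs were counted over the table to show how common such a pattern was. Of 5426 couples with both circRNAs tested, 59 (1.09%) had every hypoxia library above every normal pressure library in both. The count was 14.5 of 2685 couples at equal depth, where fewer circRNAs were tested. The share was lower there too, at 0.54%, and the cause of that was not tested. Without normal pressure replicate 1, 2 or 3 the count was 150 of 4495, 118 of 5041 and 172 of 4354 couples. Fewer libraries have to be free of overlap there. Where both circRNAs were above 0 in all 6 libraries, as in the couple described here, the count was 12 of 1057 (1.14%). In 2 couples both circRNAs were called higher by limma, the other being novel_circ_012225 and novel_circ_012226, with log2 fold changes of 0.64 and 0.94 at mean abundances of 454 and 212 RPM. That couple was found by its calls, so its values too are a description.

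Profiles over the 6 libraries were compared by the root mean square difference of log2 values, each circRNA being centred on its own mean, among 6057 circRNAs above 0 in all libraries. The profiles nearest to novel_circ_048207 were those of novel_circ_019049 (difference 0.069), novel_circ_025525 (0.082) and novel_circ_037586 (0.115), where the median over the 6056 others was 0.55. Of these, novel_circ_025525 was abundant, at 569 ± 61.6 RPM at normal pressure and 948 ± 168 RPM under hypoxia (SD, n = 3). Like novel_circ_048207, it was highest in replicate 2 and lowest in replicate 3 of each group, but it was picked for nearness on these same values. Both novel_circ_019049, at means of 24.3 and 38.8 RPM, and novel_circ_037586, at 25.2 and 36.1 RPM, were scarce. Their nearness rests on few reads.

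The profiles nearest to novel_circ_048208 were those of novel_circ_028074 (0.104), novel_circ_036033 (0.132) and novel_circ_019793 (0.136), with a median over the others of 0.67. The most abundant of them, novel_circ_036033, had 96.5 ± 26.4 and 192 ± 24.4 RPM (SD, n = 3). The scarcest, novel_circ_019793, had means of 22.6 and 43.5 RPM. In normal pressure replicate 2 it stood at 13.21 RPM, the smallest value above 0 of that library. The members were not each other's nearest: their difference was 0.30, which ranked novel_circ_048208 at 436 from novel_circ_048207, and novel_circ_048207 at 148 from novel_circ_048208. The flanking novel_circ_048215 ranked 15 from novel_circ_048208, with a difference of 0.18, and 647 from novel_circ_048207, with a difference of 0.33. Profiles over all 6 libraries hold the difference between the groups. The members were chosen on that difference, and novel_circ_048215 was named for its call on it, so these ranks are a description. Within normal pressure the members were ordered oppositely, replicate 2 being the highest for novel_circ_048207 and the lowest for novel_circ_048208. That lowest value rested on 15 reads. For each member the counting intervals of the normal pressure libraries overlapped, so this order is not resolved beyond counting error.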

How the data were processed

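CircRNAs of 6 ovary libraries were analysed, 3 per group. Ribosomal RNA depletion (Ribo-off), RNase R treatment, stranded library preparation and a DNBSEQ-G400 sequencer are stated per the labels' protocols. BWA, Bowtie2 and GRCm38 are named, without roles, per the submitters' processing notes, while the circRNA caller is not given in the sources used here. RPM values, which sum to about the same total in each library, were deposited by the authors. They were whole multiples of a step (100% within 0.05 of a whole number, with the smallest value taken as 2 reads), which gave the reads.

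CircRNAs above 0 in at least 3 libraries were fitted with limma 3.58.1 in R 4.3.3 on log2(RPM + 4.765), a pseudocount equal to the median of the 6 smallest values above 0 (1 per library), with intensity trend, robust variances and Benjamini-Hochberg adjustment at 0.05. This pseudocount understates fold changes of scarce circRNAs. The fit was tested on simulated data. The members, rules and tests were chosen with earlier results of these data known. By rule the named circRNAs are the members, the 2 nearest IDs on each side, called ones among 10 IDs on each side, and the 3 nearest profiles of each member; novel_circ_048197, novel_circ_048198, novel_circ_048213, novel_circ_048217, novel_circ_048218, novel_circ_012225 and novel_circ_012226 were named after their values were seen. Python 3.11.15 with scipy 1.17.1 was used otherwise.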

Additional observations from a re-analysis of the deposited data

How the results depend on the processing

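The log2 fold changes of both members and of their sum kept their direction under every alternative run. They moved by less than the SD between replicates, with equal depth taken as the mean of 20 draws. The difference in share, 2.14 percentage points, also moved by less than its SD of 2.38, but that SD is larger than the difference itself. It fell to 0.426 percentage points without normal pressure replicate 2, and single draws at equal depth ran from -1.19 to 5.89 percentage points. The number of circRNAs called, 64, fell to 27 at the smaller pseudocount, 1.19 RPM, and to 42 among circRNAs above 0 in all 6 libraries. It was 97 with voom on reads. Plain limma variances, with no trend and no robust step, gave 0 calls and 1408 circRNAs at an unadjusted p under 0.05. Leaving out 1 library gave 4 to 58 calls. The number of consecutive couples higher in both, 59, became 12 among circRNAs above 0 in all 6 libraries, 14.5 after thinning to equal depth, and 70 to 172 when a library was left out. Fewer circRNAs were tested in each of these runs, with 4043 to 5041 couples when a library was left out, against 5426. Leaving out a library also asks for fewer libraries without overlap. As a share of couples the number was 1.09% as reported, 1.14% among circRNAs above 0 in all 6 libraries and 0.54% at equal depth. The cause of the changes in calls was not tested. With 1 library left out the mean log2 ratio within a library was -2.77 to -2.59, where 5 libraries allow no p below 0.0625 in an exact permutation test. Median centring turned the split of calls from 26 higher and 38 lower to 37 and 22, and quantile normalization moved the median of all circRNAs by -0.15. The fit with a replicate block called 65, and in it novel_circ_048208 kept its log2 fold change of 0.92 and lost its call. Deviations of libraries with equal numbers had correlations of -0.002, -0.024 and 0.003, so the numbers were not taken as pairs. The planned count models were not run, because reads were inferred from RPM by taking the smallest value as 2 reads, an assumption that voom shares. Depth limits novel_circ_048208 most in normal pressure replicate 2, where 1 read is 6.61 RPM.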
